A study of Mus musculus with 48 samples.

Results

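Growth hormone from the pituitary binds its receptor on hepatocytes, the receptor-bound kinase JAK2 phosphorylates the transcription factors STAT5A and STAT5B, and these move to the nucleus and switch on target genes. In rodents the hormone is released in pulses in males and more evenly in females, and the liver reads that difference through STAT5b, so that many liver genes differ between the sexes. Genes of this axis, 10 in all, were followed in mouse liver after dichloroacetic acid (DCA), a by-product of water disinfection, was given in drinking water. They were the receptor (Ghr), the transcription factors (Stat5a and Stat5b), the feedback inhibitor Socs2, the secreted products Igf1 and Igfals, the repressor Bcl6 and the male-biased targets Hsd3b5, Elovl3 and Cyp7b1. Members were found by symbol: 10 of the 11275 genes in the table of frozen (FROZ) livers and 7 of the 6673 genes in the table of formalin-fixed, paraffin-embedded (FFPE) livers. Stat5b, Socs2 and Igfals were not analysed here in FFPE. Elovl3 and Cyp7b1 were selected on their decreases with dose in these same data (FROZ and FFPE log2 values, all doses against vehicle), so their changes with dose are described without a test. The other 8 were named for their role in the axis, with earlier results of these data known.

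All 24 animals were male B6C3F1 mice of 4 weeks, 6 at each dose, that drank water with 0 (vehicle control), 1.0, 2.0 or 3.5 g/L DCA for 6 days, which was estimated as a daily intake of 198, 313 or 427 mg/kg-d for the DCA groups. Each liver gave 1 FROZ library from mixed lobes and 1 FFPE library from the left lateral and right medial lobes, all from archived tissue. FROZ libraries were made from isolated RNA and FFPE libraries from lysed sections, so preservation, lobe and preparation cannot be told apart. Both were measured by TempO-Seq, an assay in which a pair of short probes is ligated on each target RNA and counted by sequencing. Signals of overly abundant transcripts were attenuated by the assay's design, and RNA came from whole tissue, so fewer cells of a type and less RNA per cell cannot be told apart. Values are log2(CPM + 1), where CPM is a gene's reads scaled to a common library total; the tables were scaled separately, so levels are compared between doses within a table, and not between tables or genes.

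Depth recovered from the smallest steps in the values was 6.69 to 9.84 M reads in FROZ and 1.83 to 6.01 M reads in FFPE. Between 12 and 61 genes were at 0 in a FROZ library and between 65 and 1582 in an FFPE library, with medians per dose in FFPE of 279.5, 982, 632 and 134 from vehicle to 427 mg/kg-d. All 10 hepatocyte markers looked for were listed in FROZ and 9 in FFPE. The FROZ hepatocyte markers together reached 31304 to 40374 CPM in vehicle livers and 28457 to 33436 CPM at 427 mg/kg-d, and the 6 endothelial markers 171 to 192 and 147 to 164 CPM, which did not overlap. Single markers within these lists went both ways. Mean CPM of Apoa1 and Cyp2e1, the largest, fell from 19464 to 15778 and from 10552 to 9096. That of Ttr and Hnf4a rose from 1573 to 1932 and from 368 to 499. Among endothelial markers Stab2 went from 42.8 to 26.8, Stab1 from 56.4 to 54.9 and Pecam1 from 2.26 to 2.55 CPM. The 5 Kupffer cell markers listed summed to 65.4 to 105 CPM in vehicle livers and 52.9 to 73.9 CPM at 427 mg/kg-d, and Timd4 was not among the listed genes. In FFPE the 9 hepatocyte markers listed reached 39975 to 54480 CPM in vehicle livers and 29494 to 34103 CPM at 427 mg/kg-d, which did not overlap, and 4 endothelial markers 414 to 633 and 361 to 455 CPM. How many other sums of genes would keep these groups apart was not counted. The part of these shifts in the results that follow was not tested. Acinar pancreas and lymphocyte markers were high in 2 FROZ libraries, animal 53 at 198 mg/kg-d (80.5 and 22.9 CPM) and animal 101 at 427 mg/kg-d (111 and 14.9 CPM), against medians of 6.74 and 1.51 CPM over the 24 libraries. The counts of members past the test against vehicle were the same without these animals, at 0, 1 and 3.

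In the GENCODE vM21 annotation of GRCm38 all members are protein-coding genes. On the plus strand lie Stat5a (chr11:100859351-100885169), Igf1 (chr10:87858265-87937042), Igfals (chr17:24865997-24882010) and Elovl3 (chr19:46131897-46135694). On the minus strand lie Ghr (chr15:3317760-3583492), Stat5b (chr11:100780731-100850724), Socs2 (chr10:95385362-95417180), Bcl6 (chr16:23965052-23988852), Hsd3b5 (chr3:98618634-98630252) and Cyp7b1 (chr3:18071950-18243338). Stat5a and Stat5b are neighbours on chromosome 11 and are alike in sequence: of all 50-base windows of their transcripts, 8.21% and 10.98% occur in the other gene too. For Hsd3b5, 21.2% of windows also occur in Gm10681, Hsd3b4 or Gm4450. The windows targeted by the probes are not known here, so values of these 3 members are uncertain to that extent. The reads recovered from the FROZ values of these 3 genes were whole within 0.1 read in 7 (Stat5a), 7 (Stat5b) and 2 (Hsd3b5) of 24 libraries, while those of Socs2, Igf1, Igfals and Cyp7b1 were whole in all 24. Reads were also whole in only 11 (Ghr), 9 (Elovl3) and 22 (Bcl6) libraries, genes with up to 7842, 57415 and 3593 reads.

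STAT5 dimers bind the sequence TTCNNNGAA, which reads the same on both strands, and promoter windows of the members were searched for it. RefSeq windows of GRCm38.p6, from 250 bases before to 50 bases after a transcript start, were at hand for 7 members (13 windows, several starts for some genes). The motif lay in 4 windows, of Bcl6 and Igfals, and in 8.29% of all 32817 windows searched. The 5 windows below are printed because they hold this motif or, for Hsd3b5, a form with 1 base more between TTC and GAA, found in 6.94% of all windows. Each sequence runs 5′ to 3′ along the gene's strand, with motif matches in capitals, and a match describes letters only.
Bcl6, chr16:23981234-23981533, minus strand: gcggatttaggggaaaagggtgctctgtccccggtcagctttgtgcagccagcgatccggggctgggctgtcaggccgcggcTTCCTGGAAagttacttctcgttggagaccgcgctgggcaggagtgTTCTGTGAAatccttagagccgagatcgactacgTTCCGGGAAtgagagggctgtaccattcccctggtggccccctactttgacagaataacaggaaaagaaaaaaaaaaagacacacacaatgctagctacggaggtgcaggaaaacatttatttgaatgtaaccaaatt
Bcl6, chr16:23988803-23989102, minus strand: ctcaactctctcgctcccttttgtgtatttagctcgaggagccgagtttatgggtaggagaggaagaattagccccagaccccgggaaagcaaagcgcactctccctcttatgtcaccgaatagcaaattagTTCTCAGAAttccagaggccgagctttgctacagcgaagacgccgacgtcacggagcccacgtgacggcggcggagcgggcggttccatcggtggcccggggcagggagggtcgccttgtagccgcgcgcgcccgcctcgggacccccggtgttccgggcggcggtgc
Igfals, chr17:24877594-24877893, plus strand: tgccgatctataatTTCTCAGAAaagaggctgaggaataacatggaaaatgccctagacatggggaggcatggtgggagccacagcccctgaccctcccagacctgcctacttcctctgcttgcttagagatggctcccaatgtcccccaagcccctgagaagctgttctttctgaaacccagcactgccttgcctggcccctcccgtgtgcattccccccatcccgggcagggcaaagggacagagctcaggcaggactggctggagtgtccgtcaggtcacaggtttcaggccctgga
Igfals, chr17:24877981-24878280, plus strand: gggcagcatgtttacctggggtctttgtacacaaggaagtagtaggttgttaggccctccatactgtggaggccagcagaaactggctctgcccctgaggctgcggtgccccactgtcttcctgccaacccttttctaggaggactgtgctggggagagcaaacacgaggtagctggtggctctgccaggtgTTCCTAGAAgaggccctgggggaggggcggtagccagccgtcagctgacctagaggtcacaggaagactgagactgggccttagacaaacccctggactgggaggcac
Hsd3b5, chr3:98645485-98645784, minus strand: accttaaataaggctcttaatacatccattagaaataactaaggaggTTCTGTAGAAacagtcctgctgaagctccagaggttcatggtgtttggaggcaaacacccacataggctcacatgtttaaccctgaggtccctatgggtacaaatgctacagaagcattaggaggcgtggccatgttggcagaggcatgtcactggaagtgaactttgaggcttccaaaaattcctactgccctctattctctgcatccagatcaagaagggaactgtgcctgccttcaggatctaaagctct

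The first Bcl6 window held 3 matches, starting 168, 122 and 88 bases before the transcript start. The other Bcl6 window held 1, at 118 bases before its start. The Igfals matches started 236 and 58 bases before their starts, and the longer-spaced match of Hsd3b5 began 203 bases before its start. The start of that window is the one in RefSeq, which places the 5′ end of Hsd3b5 upstream of the gene end given above from GENCODE. The windows of Ghr, Stat5a, Stat5b and Igf1 held neither form. The expression of Bcl6 and Igfals, which had the motif, is set out below with that of the other members.

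In FROZ livers the receptor, 1 of its transcription factors and a target were lower at the top dose. Of the 8 members tested, 3 were lower at 427 mg/kg-d than in vehicle livers (Ghr, Stat5b and Hsd3b5, by 1.40-, 1.57- and 2.26-fold) and none was higher at a false discovery rate (FDR) under 0.05, where 30.1% of all genes passed, 22.7% higher and 7.33% lower. At 313 mg/kg-d only Stat5b passed among those 8, against 26.7% of all genes (20.5% higher, 6.15% lower), and at 198 mg/kg-d none did by limma, against 1.56% (1.12% higher, 0.443% lower); 1 member, Hsd3b5, had an unadjusted p under 0.05 there. The median log2 fold change of the 8 was 0.17, -0.28 and -0.42 from the lowest to the highest dose, and over all genes the median was 0.07, 0.11 and 0.10. Since all genes together lay slightly above 0, each library was also rescaled by the median of its gene-wise ratios to a reference library (median-ratio scaling). On that scale Ghr also passed at 313 mg/kg-d, making 2 members lower there. Shares of all genes past the test were counted on the CPM scale only, here and below.

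**Figure D1:**
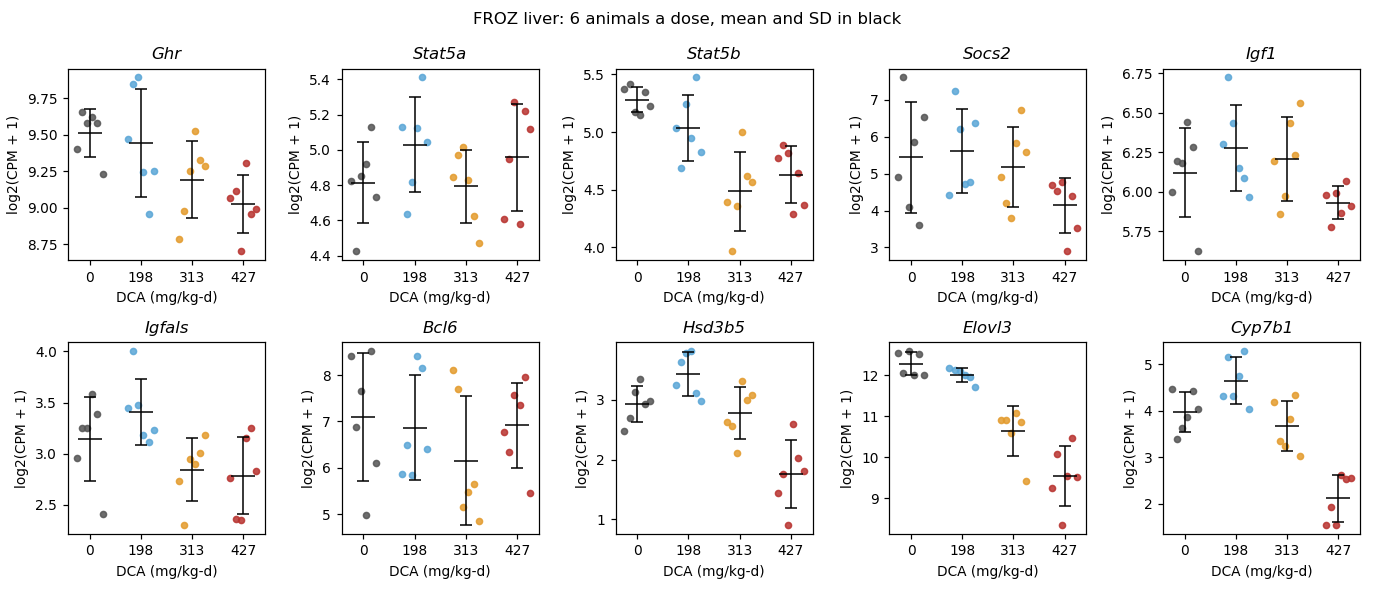
Level of each of the 10 members in the 24 FROZ livers, as log2(CPM + 1) on the vertical axis (a scale for each gene) against DCA dose in mg/kg-d; points are animals and black bars the mean and SD of 6. Stat5b sat below every vehicle liver at 313 and 427 mg/kg-d, Elovl3 and Cyp7b1 were lowest at 427 mg/kg-d, and Socs2 and Bcl6 spread widely in every group.

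Ghr encodes the growth hormone receptor. Its lowest, median and highest level were 9.23, 9.58 and 9.65 in vehicle livers, 8.96, 9.36 and 9.89 at 198 mg/kg-d, 8.79, 9.27 and 9.53 at 313 mg/kg-d, and 8.70, 9.03 and 9.30 at 427 mg/kg-d. At the top dose 5 of 6 animals lay below every vehicle animal, while the groups at 198 and 313 mg/kg-d overlapped the vehicle widely. The log2 fold change at 427 mg/kg-d was -0.49 ± 0.14 (SE, n = 6 a group, limma FDR 0.00887), and -0.63 with median-ratio scaling. The value at 313 mg/kg-d was -0.32 with an FDR of 0.0951 by limma.

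The STAT5 genes differed in their values. Stat5b, the form that is known for carrying male growth hormone pulses in liver, spanned 5.15 to 5.41 in vehicle livers (median 5.29), 4.69 to 5.48 at 198 mg/kg-d (median 4.99), 3.97 to 5.00 at 313 mg/kg-d (median 4.48) and 4.29 to 4.89 at 427 mg/kg-d (median 4.71). All 6 animals at each of the upper doses lay below all 6 vehicle animals, at 108 to 255 reads a library against 323 to 390. How many of all genes kept a dose group apart from vehicle in this way was not counted, here or below. The log2 fold change was -0.80 ± 0.14 at 313 mg/kg-d (limma FDR 0.000148) and -0.65 ± 0.14 at 427 mg/kg-d (FDR 0.000909). The step from 198 to 313 mg/kg-d was -0.55 ± 0.14 (limma FDR 0.0113), which 11.7% of all genes passed (3.65% lower), and that from 313 to 427 mg/kg-d was 0.15 ± 0.14 (FDR 0.638). The steps were not compared with each other by a test.

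Stat5a, its close relative, had levels of 4.43 to 5.13 in vehicle livers and 4.58 to 5.27 at 427 mg/kg-d, with medians of 4.84 and 5.04. The ranges overlapped at every dose. Its log2 fold changes were 0.21, -0.02 and 0.14 from the lowest to the highest dose, none past the test, and the 95% confidence interval at 427 mg/kg-d ran from -0.14 to 0.43. With median-ratio scaling the value at 427 mg/kg-d was 0.00 to 2 decimals (FDR 0.993 by limma). The difference between the Stat5a and Stat5b responses was not tested.

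Socs2, a STAT5 target that in turn damps receptor signalling, was one of the most variable genes among animals on the same dose. Its vehicle livers ran from 3.61 through a median of 5.38 to 7.61, which is 11.2 to 195 CPM. At 198, 313 and 427 mg/kg-d it spanned 4.42 to 7.23, 3.79 to 6.73 and 2.90 to 4.78, with medians of 5.48, 5.24 and 4.46. The top dose lacked the high animals that each other group held, but 4 of its 6 animals still lay within the vehicle range. The SD between animals within a dose was 1.16, against a median of 0.24 over all genes, and ranked 22 of 11275. The log2 fold change at 427 mg/kg-d was -1.30 ± 0.58 (limma FDR 0.0942). Without vehicle animal 5 it was -1.56 (FDR 0.0486) and without vehicle animal 7 it was -1.66 (FDR 0.0303), both animals with low Socs2. Without vehicle animal 4, which had the highest Socs2, it was -0.86, which did not pass.

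Igf1 encodes the circulating growth factor through which growth hormone acts on body growth, and Igfals the subunit that holds it in a long-lived serum complex. Igf1 ranged from 5.62 to 6.44 in vehicle livers (median 6.19) and from 5.77 to 6.07 at 427 mg/kg-d (median 5.94), within the vehicle range. Its log2 fold changes were 0.16, 0.09 and -0.19, the last with a 95% confidence interval of -0.46 to 0.08 and a limma FDR of 0.296. The value at 313 mg/kg-d changed sign, to -0.05, with median-ratio scaling.

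Igfals ranged from 2.41 to 3.58 in vehicle livers (median 3.25), from 3.11 to 4.00 at 198 mg/kg-d (median 3.34), from 2.30 to 3.18 at 313 mg/kg-d (median 2.93) and from 2.35 to 3.25 at 427 mg/kg-d (median 2.79), on 29 to 128 reads. All groups overlapped the vehicle range, and 5 of 6 animals at 313 mg/kg-d lay below every animal at 198 mg/kg-d. Its log2 fold changes against vehicle were 0.27, -0.29 and -0.35, none past the test (limma FDR 0.177 for the last). The step from 198 to 313 mg/kg-d was -0.57 ± 0.19 with an FDR of 0.0565 by limma, and it passed with median-ratio scaling (-0.61, FDR 0.0424), with only those 2 groups in the fit (FDR 0.0493) and without animals 53 and 101 (-0.63, FDR 0.0471). Without vehicle animal 8, which had the lowest Igfals of its group, the change at 427 mg/kg-d was -0.50 (limma FDR 0.0442), and with weights for library quality it was -0.48 (FDR 0.0437).

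Bcl6 encodes a zinc-finger repressor that competes with STAT5 at some of its sites and is itself male-biased in liver. Its lowest, median and highest level were 4.99, 7.27 and 8.52 in vehicle livers, 5.85, 6.46 and 8.42 at 198 mg/kg-d, 4.85, 5.55 and 8.11 at 313 mg/kg-d, and 5.46, 7.07 and 7.96 at 427 mg/kg-d. The groups overlapped throughout. The SD within a dose was 1.22, rank 19 of 11275, and 99.8% of genes varied less, as they did for Socs2. The log2 fold changes were -0.23, -0.94 and -0.18, with SE of 0.61 and none past the test (limma FDR 0.276 at 313 mg/kg-d).

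Hsd3b5, a male-biased 3-ketosteroid reductase and a classic target of pulsatile growth hormone had its highest mean at the lowest dose and its lowest mean at the top dose. It spanned 2.49 to 3.35 in vehicle livers (median 2.96), 2.98 to 3.82 at 198 mg/kg-d (median 3.44), 2.11 to 3.32 at 313 mg/kg-d (median 2.81) and 0.90 to 2.6 at 427 mg/kg-d (median 1.78). At the top dose 5 of 6 animals lay below every vehicle animal, on only 8.05 to 42.3 reads a library against 40.2 to 86.7. The log2 fold change there was -1.17 ± 0.23 (limma FDR 0.000274), the only tested member past both FDR and a 2-fold change, a pair of limits that 3.5% of all genes passed. The higher value at 198 mg/kg-d, 0.50 ± 0.23, had an FDR of 0.259 by limma. The step from 313 to 427 mg/kg-d was -1.03 ± 0.23 (limma FDR 0.0135), which 3.07% of all genes passed (1.34% lower). The step from 198 to 313 mg/kg-d was -0.65 ± 0.23 (limma FDR 0.0646), and it passed without animal 54, 76, 99 or 100 (FDR 0.0376 to 0.0443). These steps were not compared with each other by a test. Gm4450, which shares sequence windows with Hsd3b5, had a mean level of 9.77 in vehicle livers and 7.57 at 427 mg/kg-d. Whether reads of Gm4450 entered the Hsd3b5 values was not tested.

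Elovl3, a male-biased elongase of very long-chain fatty acids, was chosen for its decrease. It spanned 11.995 to 12.58 in vehicle livers (median 12.28), 11.70 to 12.18 at 198 mg/kg-d (median 12.05), 9.43 to 11.08 at 313 mg/kg-d (median 10.87) and 8.35 to 10.47 at 427 mg/kg-d (median 9.52). No animal at the upper doses reached the vehicle range, and the mean fell by 1.65 on the log2 scale at 313 mg/kg-d and 2.75 at 427 mg/kg-d, that is 3.15- and 6.72-fold. At 198 mg/kg-d it was 0.27 lower with overlapping ranges.

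Cyp7b1, the oxysterol 7α-hydroxylase of the alternative bile acid route, was also chosen for its decrease, yet its level was highest at the lowest dose. It spanned 3.40 to 4.47 in vehicle livers (median 3.95), 4.05 to 5.28 at 198 mg/kg-d (median 4.54), 3.03 to 4.35 at 313 mg/kg-d (median 3.58) and 1.55 to 2.62 at 427 mg/kg-d (median 2.23). At 198 mg/kg-d 3 of 6 animals lay above every vehicle animal, and at 427 mg/kg-d all 6 lay below every vehicle animal. The mean differed from the vehicle mean by 0.68, -0.31 and -1.85 on the log2 scale. Elovl3 at 313 mg/kg-d thus lay wholly below the vehicle livers, whereas Hsd3b5 and Cyp7b1 still overlapped them.

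**Figure D2:**
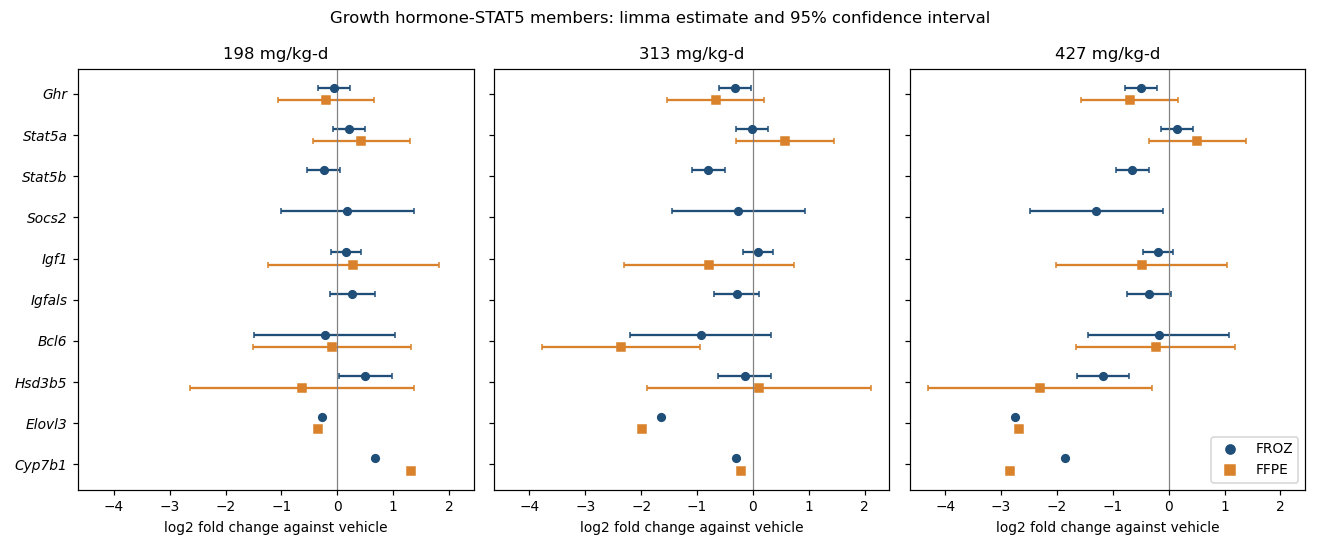
Log2 fold change against vehicle (horizontal axis) of each member at each dose, FROZ as blue circles and FFPE as orange squares; bars are limma 95% confidence intervals, left out for Elovl3 and Cyp7b1, which were chosen for their decrease. At 427 mg/kg-d the FROZ values of Ghr, Stat5b and Hsd3b5 were -0.49, -0.65 and -1.17, and FFPE intervals were wider than FROZ intervals for all 5 members that have both.

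Other genes of the pathway were counted from lists written from general knowledge with earlier results of these data known. Of 20 signalling genes (JAK2, adaptors, phosphatases, SOCS proteins and IGF partners) 19 were listed in FROZ. None passed at 198 mg/kg-d by limma, against 1.56% of all genes, and 2 had an unadjusted p under 0.05. At 313 mg/kg-d 2 were higher and 1 lower, against 20.5% and 6.15% of all genes. With median-ratio scaling 0 were higher and 2 lower there. At 427 mg/kg-d 4 were higher and 3 lower on the CPM scale, against 22.7% and 7.33% of all genes. The list's median on that scale was -0.24 against 0.10 for all genes. With median-ratio scaling 4 were higher and 4 lower. Jak2 and Cish, a STAT5 target that inhibits signalling as Socs2 does, did not pass at 427 mg/kg-d (0.06 ± 0.08 and -0.35 ± 0.48, limma FDR 0.619 and 0.624).

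The signalling genes with the largest changes at 427 mg/kg-d moved in both directions. Ptpn1, a phosphatase that removes phosphate from JAK2, rose from 1.76 to 2.32 (lowest to highest, median 1.88) in vehicle livers to 2.23 to 3.25 (median 2.66), a log2 fold change of 0.69 ± 0.17 (limma FDR 0.00327) on 19.0 to 64.0 reads. Irs1, an adaptor of insulin and IGF receptors, was 0.59 higher (FDR 0.0106). Stat3, which carries cytokine signals, fell by 0.63 on the log2 scale (limma FDR 0.000373), with all 6 animals below every vehicle animal. Igfbp3, a carrier of IGF1 in serum, fell by 0.55 (FDR 0.011).

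Genes with higher expression in male than in female liver moved mostly down. Of 18 male-biased genes 16 were listed in FROZ. At 427 mg/kg-d 11 were lower and 2 higher (Mup1 and Mup20), with a median log2 fold change of -0.86, against 7.33% and 22.7% of all genes and a median of 0.10. At 313 mg/kg-d 6 were lower and 2 higher, against 6.15% and 20.5% of all genes. With median-ratio scaling 8 were lower and 0 higher there. At 198 mg/kg-d none passed by limma, against 1.56% of all genes, and 2 had an unadjusted p under 0.05. Serpina1e and Ugt2b38 were put on the list with their decreases in these data known, so the count is not independent evidence of direction. Without them 9 of 14 were lower and 2 higher at 427 mg/kg-d, against 7.33% and 22.7% of all genes, with a median of -0.72.

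Ugt2b38, a UDP-glucuronosyltransferase, spanned 4.57 to 5.52 in vehicle livers and 1.33 to 2.88 at the top dose, and its mean was 3.11 lower on the log2 scale. Serpina1e, a member of the alpha-1-antitrypsin family, had a mean 2.18 lower, and both are given without a test, as their decreases were known. Mup21, a major urinary protein, fell by 1.70 (limma FDR 0.000197). All 6 animals of the top dose lay below every vehicle animal for each of the 3 genes, a separation not counted over all genes. Mup20, the urinary protein pheromone darcin, went the other way, at 1.65 ± 0.38 (limma FDR 0.00152), with 3 of 6 animals above every vehicle animal. Major urinary protein, Serpina1 and Ugt2b genes have near-identical relatives, so their single values are uncertain.

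Female-biased genes, those with higher expression in female than in male liver, moved in both directions. Of 18 genes 14 were listed in FROZ. At 427 mg/kg-d 5 were higher (Cyp2b9, Cyp2a4, Trim24, Abcd2 and Hao2) and 2 lower (Cyp3a44 and Fmo2), against 22.7% and 7.33% of all genes, and their median was 0.35 against 0.10 for all genes. At 313 mg/kg-d 3 were higher and 3 lower, against 20.5% and 6.15% of all genes on the CPM scale. With median-ratio scaling 2 were higher and 3 lower there. At 198 mg/kg-d only Tox, a nuclear protein, passed among them, and it was lower, against 0.443% of all genes. The authors name Cyp2b9 and Cyp2a4 among the genes most induced by DCA in these frozen livers. Counts that hold these genes are therefore not independent evidence of direction.

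Cyp2b9, a cytochrome P450, rose from 0.29 to 1.53 in vehicle livers, on 2.00 to 15 reads, to 4.31 to 7.33 at the top dose. Its mean was 4.71 higher on the log2 scale. Cyp2a4, a steroid 15α-hydroxylase, had a mean 3.84 higher, and both are given without a test, as their rises were known. Abcd2, a peroxisomal transporter, rose by 1.87 ± 0.28 (limma FDR 7.78e-06). All 6 animals at the top dose lay above every vehicle animal for Cyp2b9, Cyp2a4 and Abcd2, a separation not counted over all genes. Hao2, a peroxisomal hydroxy acid oxidase, spanned 0 to 0.49 in vehicle livers and 0.32 to 2.58 at 427 mg/kg-d, on 0 to 4.00 and 2.00 to 46.0 reads, and a value of 0 allows up to 3 reads. Its fitted log2 fold change was 0.96 ± 0.27 (limma FDR 0.00825), with 4 of 6 animals above every vehicle animal. Cyp2a4 and Cyp2b9 have close relatives too, and their single values are uncertain in the same way.

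**Figure D3:**
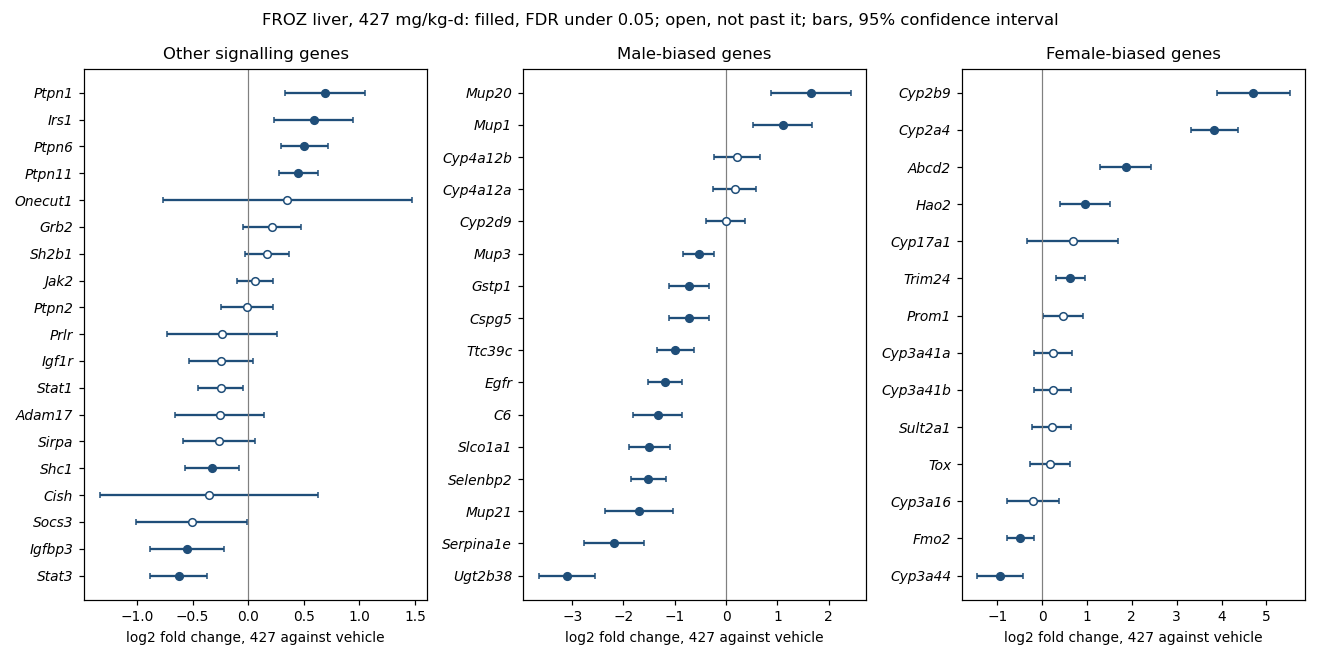
Log2 fold change at 427 mg/kg-d against vehicle in FROZ (horizontal axis) for each listed gene of the signalling, male-biased and female-biased lists, with limma 95% confidence intervals; filled points passed an FDR of 0.05. Of the 16 male-biased genes 11 were lower, and Cyp2b9 and Cyp2a4 were the female-biased genes with the highest values, 4.71 and 3.84.

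The genes whose level was most like that of a member over the 24 FROZ libraries were ranked by Pearson r among the 5871 or 5872 other genes whose mean reached 10 CPM. Libraries of all doses entered, so a shared response to dose contributes. For Hsd3b5 these were Gm4450 (r = 0.896), Selenbp2 (0.895) and the aldehyde oxidase Aox3 (0.857), and Gm4450 is one of the genes that share sequence windows with Hsd3b5. For Elovl3 they were C9 (0.928), Cdhr5 (0.906) and C8a (0.901), for Igf1 Aox3 (0.690) and Mug2 (0.667), and for Socs2 Phf8 (0.806), Abhd17b (0.803) and B3galt1 (0.785). After each animal's deviation from its dose mean was taken, Abhd17b kept an r of 0.853 with Socs2, and C8a one of 0.245 with Elovl3.

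FFPE livers gave the same members wider errors. None of the 5 members tested passed at any dose by limma, where 0.0599%, 1.08% and 2.41% of all 6673 genes passed from the lowest to the highest dose. Of the 5, 0, 1 (Bcl6) and 1 (Hsd3b5) had an unadjusted p under 0.05. None passed in the steps from 198 to 313 and from 313 to 427 mg/kg-d either, where 1.06% and 0.375% of all genes did, with 1 (Bcl6) and 2 (Bcl6 and Hsd3b5) at an unadjusted p under 0.05. With weights for library quality, Ghr (-0.84, FDR 0.0344) and Hsd3b5 (-2.53, FDR 0.00896) passed at 427 mg/kg-d. Over all FFPE genes the median change was -0.19, -0.12 and 0.18, and that of the 5 members -0.10, -0.66 and -0.48.

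Of the wider lists, 14 signalling, 14 male-biased and 4 female-biased genes were listed in FFPE. At 427 mg/kg-d 5 male-biased genes were lower (Mup3, Serpina1e, Selenbp2, Gstp1 and Ttc39c) and 0 higher, against 2.41% of all genes in either direction. With median-ratio scaling these were 6 and 0. Of the female-biased genes Cyp2a4 was counted as higher, with a mean 3.86 above vehicle on the log2 scale. Serpina1e and Cyp2a4 are counted here too, with their changes known. Without Serpina1e 4 of 13 male-biased genes were lower and 0 higher at 427 mg/kg-d, and 1 of 13 was lower at 313 mg/kg-d. Mup1 and Mup20, which had passed as higher in FROZ (1.10 and 1.65), were at -1.22 ± 0.82 and 0.49 ± 0.48 in FFPE (limma FDR 0.849 and 1.00). The FFPE hepatocyte markers, whose sums did not overlap between these groups, are given above. At 313 mg/kg-d Serpina1e and Selenbp2 were lower, where 1.08% of all genes passed in either direction. At 198 mg/kg-d none of the 3 lists held a gene past the test by limma, against 0.0599% of all genes. There 1 signalling and 1 male-biased gene had an unadjusted p under 0.05. No signalling gene passed at the upper doses by limma, with 1 and 0 at an unadjusted p under 0.05.

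Ghr spanned 6.18 to 7.26 in FFPE vehicle livers and 5.12 to 6.84 at 427 mg/kg-d, with 4 of 6 animals below every vehicle animal, and its log2 fold change was -0.69 ± 0.42 (limma FDR 0.796). Stat5a values were 0.43, 0.57 and 0.51 above the vehicle mean from the lowest to the highest dose, with ranges that overlapped. Igf1 was -0.48 at 427 mg/kg-d with an SE of 0.75, and 1 library at 313 mg/kg-d was at 0, which allows up to 3 reads.

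Bcl6 in FFPE spanned 5.88 to 8.90 in vehicle livers (median 7.48), 6.37 to 8.17 at 198 mg/kg-d (median 7.31), 0.62 to 7.83 at 313 mg/kg-d (median 5.21) and 5.89 to 7.72 at 427 mg/kg-d (median 7.26). The lowest value, in animal 77, rested on 2.00 reads, and 4 of 6 animals at 313 mg/kg-d lay below every vehicle animal. The log2 fold change at 313 mg/kg-d was -2.36 ± 0.69 (limma FDR 0.107). It was -2.93 (limma FDR 0.0153) without animal 74, the highest of that group, and -1.48, which did not pass, without animal 77.

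Hsd3b5 in FFPE spanned 3.78 to 4.96 in vehicle livers, 0 to 6.23 at 198 mg/kg-d, 2.05 to 6.35 at 313 mg/kg-d and 0 to 3.62 at 427 mg/kg-d, with 1 library at 0 at 198 mg/kg-d and 2 at 427 mg/kg-d. All 6 animals at the top dose lay below every vehicle animal. Its log2 fold change there was -2.31 ± 0.99 (limma FDR 0.414), a fitted value that depends on the offset for the libraries at 0.

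Elovl3 in FFPE spanned 9.79 to 10.64 in vehicle livers (median 10.18), 8.29 to 10.46 at 198 mg/kg-d (median 10.23), 6.42 to 9.15 at 313 mg/kg-d (median 8.35) and 6.00 to 8.78 at 427 mg/kg-d (median 7.63). Cyp7b1 spanned 5.52 to 7.85 (median 6.45), 7.31 to 8.70 (median 7.74), 5.64 to 7.21 (median 6.37) and 1.66 to 4.75 (median 4.14) in the same order. As in FROZ, Elovl3 at the upper doses and Cyp7b1 at the top dose lay wholly below the vehicle livers, and Cyp7b1 was highest at 198 mg/kg-d. Their mean differences from vehicle at 427 mg/kg-d were -2.68 and -2.83 on the log2 scale.

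**Figure D4:**
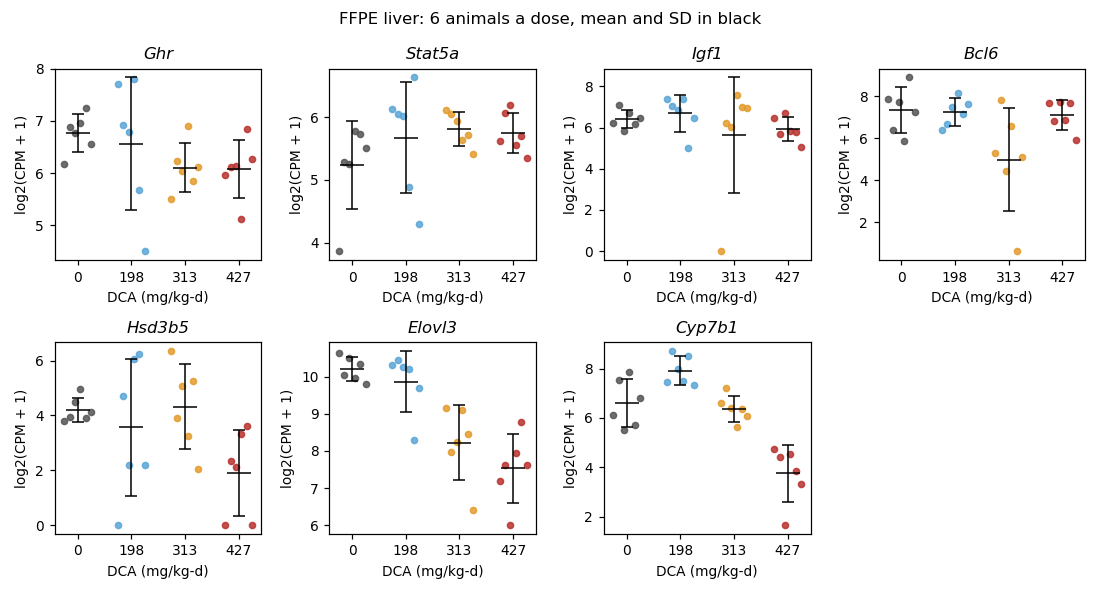
Level of each of the 7 members listed in FFPE, as log2(CPM + 1) on the vertical axis (a scale for each gene) against DCA dose in mg/kg-d; points are animals and black bars the mean and SD of 6. Elovl3 and Cyp7b1 were lowest at 427 mg/kg-d, and single libraries of Igf1, Bcl6 and Hsd3b5 lay at or near 0.

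The response in FFPE was set against the response in FROZ of the same animals, over 6591 genes in both tables. None of the 5 members tested (Ghr, Stat5a, Igf1, Bcl6 and Hsd3b5) passed at any dose by limma, none had an unadjusted p under 0.05, and 0.0303%, 0% and 0.0303% of all genes passed from the lowest to the highest dose. The difference nearest to the limit was Bcl6 at 313 mg/kg-d, -1.42 with a 95% confidence interval of -2.95 to 0.11. For Hsd3b5 at 427 mg/kg-d the interval ran from -3.05 to 0.79. The FROZ and FFPE values at 427 mg/kg-d were -2.75 and -2.68 for Elovl3 and -1.85 and -2.83 for Cyp7b1, given without a test.

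An animal's deviation from its dose mean was also compared between its FROZ and its FFPE library, over 24 animals and 7 members. For Elovl3 Pearson's r was 0.819 (adjusted permutation p = 0.0007, raw p = 0.0001) and Spearman's rho 0.723 (adjusted p = 0.00042, raw p = 6e-05 by permutation). Without the 2 animals farthest from the median r was 0.631, and within the doses it was 0.940, 0.441, 0.918 and 0.935 from vehicle to 427 mg/kg-d.

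For Bcl6 Pearson's r was 0.511 (adjusted permutation p = 0.0762, raw p = 0.0218) and Spearman's rho 0.623 (adjusted p = 0.0135, raw p = 0.00387 by permutation), so that only the rank measure passed. Without the 2 farthest animals r was 0.514, and within doses it was 0.871, 0.536, 0.384 and 0.827. Leaving out animal 6 or animal 74 gave 0.462 and 0.433, with unadjusted permutation p values of 0.0711 and 0.0862. The other 5 members had r between 0.108 and 0.294, none past the test on either measure.

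**Figure D5:**
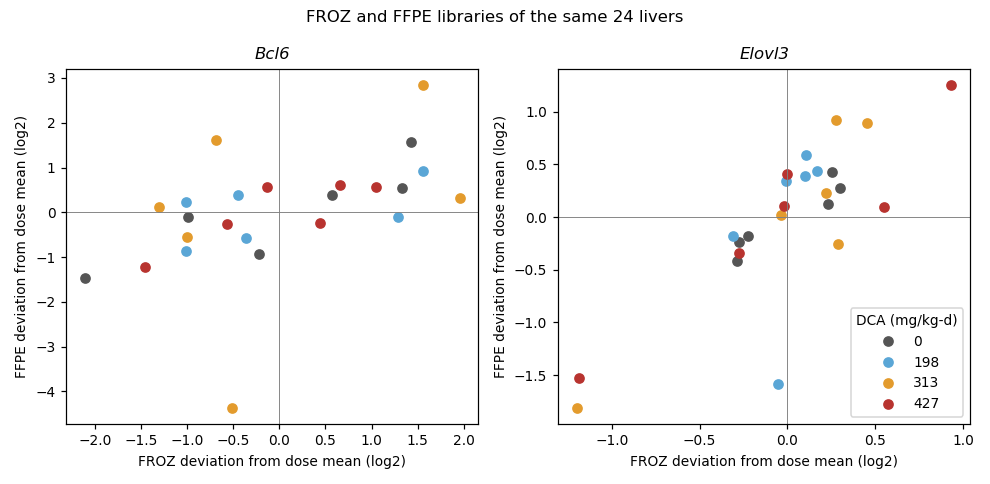
Deviation of each animal from its dose mean in FROZ (horizontal axis) and in FFPE (vertical axis), both on the log2(CPM + 1) scale, for Bcl6 and Elovl3; each of the 24 points is an animal, coloured by DCA dose in mg/kg-d. The deviations ran together for Elovl3 (r = 0.819) and less closely for Bcl6 (r = 0.511), where animal 77 at 313 mg/kg-d lay lowest in FFPE.

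Within FROZ, deviations were compared between members in all 45 pairs, on the CPM scale only. Whether the scaling of libraries, which both genes of a pair share, contributes to these correlations was not tested. Both pairs past an adjusted permutation p of 0.05 on Pearson's r held Igfals: with Igf1, r was 0.792 (adjusted permutation p = 0.0009, raw p = 2e-05) and rho 0.733 (adjusted p = 0.0063 by permutation), and with Ghr, r was 0.652 (adjusted permutation p = 0.0119, raw p = 0.00053) and rho 0.693 (adjusted p = 0.0092 by permutation). Without the 2 farthest animals these were 0.682 and 0.609. Within doses, Igfals with Igf1 gave 0.999, 0.937, 0.749 and 0.387 from vehicle to 427 mg/kg-d, and Igfals with Ghr gave 0.938, 0.826, 0.594 and 0.446. Another 4 pairs had an adjusted permutation p of 0.0586 and did not pass: Igf1 with Ghr (r = 0.599), Stat5a with Ghr (-0.589), Hsd3b5 with Ghr (0.552) and Socs2 with Stat5a (-0.543).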

How the data were processed

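RNA of 24 livers, each as a FROZ and an FFPE library (48 samples), was measured by TempO-Seq. Per the submitters' processing notes, STAR 2.6, Partek and the mm10 build were used. The authors deposited 1 table for each preservation, with log2 values of CPM (counts scaled to a common library total, offset 1), already filtered for low genes. CPM values were recovered from the deposited log2 values; steps of 1 read gave the depth, with 87 to 97.5% of values below 5 CPM whole within 0.1 read, and counting error is the least error of a value. The authors' reads were not recovered exactly, so no count model was run.

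Groups were the doses in the labels. limma 3.58.1 (R 4.3.3) was fitted to log2(CPM + 1) over all genes of a table, 4 group means, with a mean-dependent variance prior (trend) and Benjamini-Hochberg FDR, threshold 0.05; p-values of correlations came from 100000 permutations of animals within doses, two-sided (numpy 2.4.6, scipy 1.17.1). In data simulated for the comparison of 427 mg/kg-d with vehicle, limma recovered 50 and 47 of 50 genes lowered by 2 and 1 on the log2 scale, and 50 and 49 of those raised by 2 and 1, among 11275 FROZ genes. Among 6673 FFPE genes these were 37, 16, 37 and 14. The changed genes were drawn only from those above a minimum vehicle level. Genes that did not reach it in FROZ included Hsd3b5, Cish, Hao2, Cyp2b9, Ptpn1, Irs1, Abcd2, Cyp3a44 and Fmo2. Noise was normal with the vehicle SD of each gene, and libraries at 0 were not modelled. Recovery of genes at low levels or with libraries at 0 is therefore not given by these counts. FFPE and FROZ responses were compared within animals: per the labels both libraries came from the same animal, and deviations from dose means over 4815 genes had a median r of 0.128 within and -0.0232 between animals, with 21 of 24 animals closest to their own. The alternatives were an offset of 0.1 CPM, median-ratio scaling, a mean of at least 10 CPM, a prior without trend, only the 2 groups compared, library weights, leaving out each library, and no replicate block. Chosen after the data were seen were the alternatives for the steps and for the correlations, the 45 pairs of members, and the fit without animals 53 and 101.

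The members and lists were chosen with earlier results of these data known. Named genes were the members, up to 4 genes of each list with the largest absolute change past the test at 427 mg/kg-d in FROZ, and the 3 genes most like Socs2, Igf1, Hsd3b5 and Elovl3 (a gene of the female-biased list and 1 most like Igf1 are not reported here); other genes named beside a small count were chosen after their values were seen. Promoters came from RefSeq (GRCm38.p6) and positions from GENCODE vM21 (GRCm38).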

Additional observations from a re-analysis of the deposited data

Results flagged for a closer look

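Of 68 groups of 6 libraries examined, 1 for each member, dose and preservation, 4 held a lowest animal far from the others by Dixon's test, and chance gives about 1 in 20 groups. Elovl3 in FROZ at 313 mg/kg-d was 9.43 in animal 78, and the next animal was at 10.59. Stat5a in FFPE vehicle livers was 3.86 in animal 3, with the next at 5.26. Igf1 in FFPE at 313 mg/kg-d was 0 in animal 73, with the next at 6.01. Elovl3 in FFPE at 198 mg/kg-d was 8.29 in animal 53, with the next at 9.69.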

How the results depend on the processing

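Without the replicate block, the comparison of FFPE with FROZ responses gave 0 members past the test at each dose, as with it, so the pairing changed no call. Median-ratio scaling moved the FROZ count at 313 mg/kg-d from 1 to 2, and that of the step from 198 to 313 mg/kg-d from 1 to 2; the latter was also 2 with only the 2 groups compared and without animals 53 and 101. A mean of at least 10 CPM gave 0 for the step from 313 to 427 mg/kg-d, since Hsd3b5 was then not in the fit. Library weights gave 2 in FFPE at 427 mg/kg-d. Leaving out 1 library gave 1 to 2 for the FROZ step from 198 to 313 mg/kg-d (2 without animals 8, 54, 76, 78, 99, 100 or 101), 3 to 4 in FROZ at 427 mg/kg-d, and 0 to 1 in FFPE at 313 mg/kg-d and for the FFPE step from 198 to 313 mg/kg-d (1 without animal 74). Leaving out 1 animal gave r from 0.433 to 0.657 for Bcl6, from 0.736 to 0.920 for Elovl3 and from -0.0793 to 0.206 for Cyp7b1. Signs turned in 63 single-library omissions, touching 32 of the 106 changes and differences of single members. Of these turned values 7 were of Elovl3 or Cyp7b1, which were not tested, and the others were never past the test. By setting, signs turned for Ghr in FROZ at 198 mg/kg-d without animals 53 and 101 (0.031). With median-ratio scaling they turned for Igf1 in FROZ at 313 mg/kg-d (-0.052) and the Elovl3 difference between FFPE and FROZ at 198 mg/kg-d (0.022). With library weights they turned in FFPE for Igf1 (0.058) and Hsd3b5 (-0.63) at 313 mg/kg-d, Stat5a in both steps (-0.11 and 0.072) and Igf1 in the upper step (-0.38). The cause was not tested. FFPE depth and libraries at 0 limit what could be detected there, as do 6 animals a group.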
